A study of Mus musculus with 18 samples.

Results

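The genes of mitochondrial beta-oxidation and of the carnitine shuttle that feeds it were followed step by step in the ileum of mice that overexpress *Ppara* in the intestinal epithelium. The set holds 37 genes of the 55487 in the count files, chosen by name for their place in the pathway: 5 of the carnitine shuttle, 2 that set malonyl-CoA, 4 straight-chain acyl-CoA dehydrogenases, 4 other dehydrogenases of that family, 2 subunits of the trifunctional protein, 4 matrix enzymes of the later steps, 4 auxiliary enzymes for unsaturated chains, 3 of electron transfer, and 9 that break down branched-chain acyl-CoA and propionyl-CoA. All mice were C57BL6/J littermates on chow, 8 to 13 weeks old, and carried CAG-*Ppara*,-*EGFP*, a transgene at *Col1a1* whose CAG promoter drives tagged *Ppara* and EGFP once Cre has inverted it. The 6 IEC-*Ppara* heterozygous mice (2 female, 4 male) and the 6 IEC-*Ppara* homozygous mice (2 female, 4 male) also carried *Villin-CreERT2*, which acts in the intestinal epithelium, and the 6 controls (3 female, 3 male) lacked it. Every mouse, control or not, was given tamoxifen (100 mg/kg, intraperitoneally, on 3 days) and its ileum was taken 2 weeks later. Controls without Cre do not show what Cre alone does, so Cre and the transgene cannot be told apart in any comparison with them.

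Long-chain fatty acids cross the mitochondrial membranes as carnitine esters. Carnitine palmitoyltransferase of the outer membrane makes the ester and is blocked by malonyl-CoA, a carrier of the inner membrane exchanges it for free carnitine, and a second transferase returns the acyl group to coenzyme A. In the matrix each turn of beta-oxidation removes acetyl-CoA by dehydrogenation, hydration, a further dehydrogenation and thiolysis, with enzymes that share the work by chain length. PPARα is a lipid-sensing nuclear receptor for which many of these genes are textbook targets in liver, and enterocytes meet a large load of dietary fat.

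Full-thickness tissue was sequenced after poly-A selection, with 1 library per mouse and 38528522 to 50376371 reads counted on genes per library. *Ppara* itself, which the counts cannot split into endogenous and transgenic reads, was at 25.8 to 47.4 CPM (reads of a gene scaled to the library total) in controls (median 39.4), at 107 to 196 CPM in heterozygous mice (median 135.6) and at 184 to 279 CPM in homozygous mice (median 210.7). The control range lay below both others, which overlapped each other, so *Ppara* checks the labels of controls against IEC-*Ppara* mice and not those of heterozygous against homozygous mice. The summed CPM of 10 epithelial markers overlapped between the genotypes. It was 14190 to 17700 in controls, 15520 to 18480 in heterozygous mice and 13810 to 17950 in homozygous mice. All 10 were higher in heterozygous mice (median 0.064 on the log2 scale) and 4 of 10 in homozygous mice (median -0.017). Of these, 0 had an unadjusted edgeR p under 0.05. Of 9 tested absorptive enterocyte markers, 6 were higher in heterozygous (median 0.096) and 6 in homozygous mice (median 0.065). At that p 3 were higher in heterozygous mice, and 2 higher and 1 lower in homozygous mice. By edgeR 1, *Fabp2*, was called, higher in homozygous mice. It is also in the list of fatty acid supply genes below, so the 2 lists are not separate evidence. All 10 smooth muscle markers were higher in homozygous mice, by a median of 0.57 on the log2 scale with 0 of 10 at an unadjusted edgeR p under 0.05 and 0 called by edgeR or by DESeq2, while in heterozygous mice all 10 were lower, by a median of -0.184 with 0 at an unadjusted p under 0.05. Their summed CPM ran from 682 to 6140 in controls, 852 to 4510 in heterozygous mice and 4157 to 9690 in homozygous mice. All 10 fibroblast markers were higher in homozygous mice (median 0.354, 1 at an unadjusted p under 0.05) and 2 of 10 in heterozygous mice (median -0.08). All 10 B cell markers were lower in homozygous mice at an unadjusted p under 0.05, by a median of -2.79 on the log2 scale, with 0 at an adjusted p under 0.05 by edgeR or by DESeq2, and controls 2 and 3, heterozygous 2 and homozygous 1 had the 4 highest B cell scores. All 6 T cell markers were also lower in homozygous mice at an unadjusted p under 0.05, by a median of -0.807, with 0 called by edgeR and 2 by DESeq2. In heterozygous mice all 10 B cell markers (median -1.37 on the log2 scale, 0 at an unadjusted p under 0.05) and all 6 T cell markers (median -0.695, 4 at an unadjusted p under 0.05) were lower as well, with 0 called by edgeR or by DESeq2. Fits with the smooth muscle, B cell or epithelial score as a covariate are given with the account of single mice. The part of the absorptive enterocyte, T cell and fibroblast markers in the results was not tested. In tissue of mixed cells, fewer cells of a type and less RNA per cell cannot be told apart, and the p-values measure the spread between these mice.

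A gene was tested where it had more than 3 CPM in at least 4 libraries, which held for 12645 protein-coding genes and for 36 of the 37 pathway genes, and all adjusted p-values are those of edgeR's quasi-likelihood test over these 12645 genes. In homozygous mice *Slc25a20*, *Acacb* and *Acadvl* rose, 3 of 36 genes (8.33%) against 0.372% of all genes tested called in that direction. In heterozygous mice the same 3 genes and *Etfdh* rose, 4 of 36 (11.1%) against 0.293% of all genes. No pathway gene fell, by edgeR or by DESeq2, in either comparison. At an unadjusted p under 0.05, 18 of 36 genes were higher in homozygous mice and 0 lower, where 4.03% of all genes were higher and 4.03% lower. The same count in heterozygous mice was 19 of 36 higher and 0 lower, where 2.76% of all genes were higher and 2.53% lower. The median change of the 36 genes was 0.13 in homozygous and 0.21 in heterozygous mice on the log2 scale, beside -0.005 and -0.006 over all genes. Both comparisons share the controls, so their values are set side by side and are not counted as separate evidence.

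**Figure D1:**
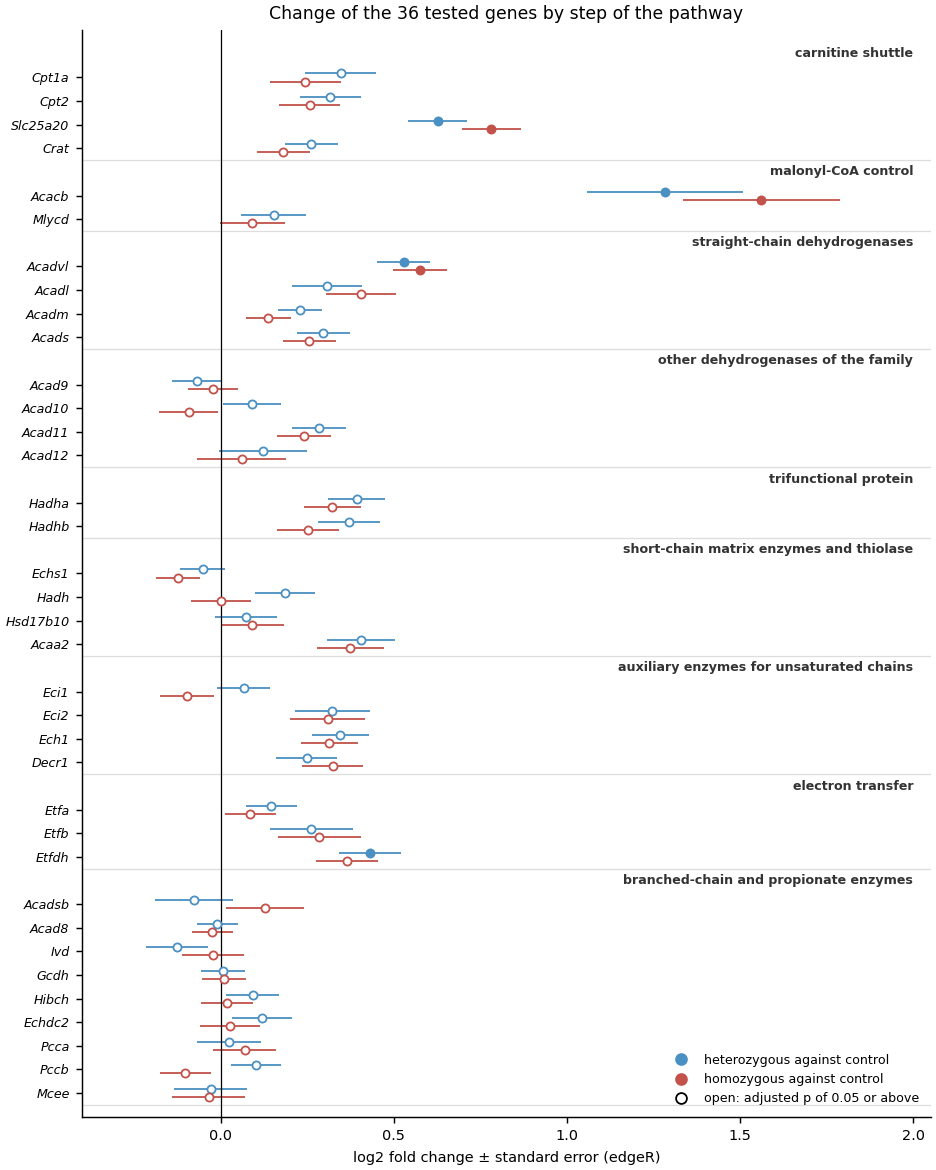
Log2 fold change (x axis, points, with the standard error as a line) of each of the 36 tested genes (y axis, by step) in heterozygous and homozygous mice against controls, 6 mice per group. Filled points have an adjusted p under 0.05: they are *Slc25a20*, *Acacb* and *Acadvl* in both comparisons and *Etfdh* in heterozygous mice. The branched-chain and propionate genes lie around 0.

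Of the 4 tested genes of the carnitine shuttle, 1 passed the test in each comparison with controls, *Slc25a20*. Among all genes 0.372% were called higher in homozygous and 0.293% in heterozygous mice. The other 3 shuttle genes had fitted changes above 0 that did not pass after adjustment. *Slc25a20* (chr9:108662088-108684641, plus strand, GRCm38), the carnitine-acylcarnitine carrier of the inner membrane, stood apart from controls in every mouse. It was at 68.2, 81.4 and 95.4 CPM (lowest, median and highest library) in controls, at 105.8, 121.4 and 140.4 CPM in heterozygous mice and at 126.6, 138.6 and 161.0 CPM in homozygous mice. The control range touched neither IEC-*Ppara* range, and the IEC-*Ppara* ranges overlapped each other. *Slc25a20* rose by 0.78 ± 0.085 (log2, standard error; 1.72-fold; adjusted p = 3.675e-05) in homozygous mice and by 0.63 ± 0.085 (1.54-fold; adjusted p = 0.0007845) in heterozygous mice. It was called under all 13 alternative settings in both comparisons, among them those with the epithelial, smooth muscle or B cell score as a covariate.

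The bases just upstream of *Slc25a20* are shown because it is the shuttle gene that passed the test in every setting. They are 202 bases of the plus strand, chr9:108661886-108662087 (GRCm38.p6, from RefSeq), which end where the annotated gene begins, and the capitals mark the letters GGGCGG or their complement CCGCCC, the core of a GC box bound by Sp1-type factors.
Slc25a20: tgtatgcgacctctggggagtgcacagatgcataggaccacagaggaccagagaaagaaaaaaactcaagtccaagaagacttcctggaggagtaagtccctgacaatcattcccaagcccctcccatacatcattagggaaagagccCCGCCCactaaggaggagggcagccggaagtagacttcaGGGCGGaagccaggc
No AGGTCA or its complement TGACCT, the hexamer that nuclear receptors such as PPARα read as a direct repeat, is among these letters. Of the 37 genes, 32 had a RefSeq window of 300 bases (250 before the start and 50 after it), and 23 of these (71.9%) hold GGGCGG on either strand, against 35.7% of 32851 windows of that length. The hexamer is in 6 of 32 windows (18.8% against 16.3% of all windows), namely those of *Cpt1a*, *Acacb*, *Acadvl*, *Acadm*, *Echs1* and *Pcca*. The spaced repeat AGGTCANAGGTCA, on either strand, is in 0 of 32 windows and in 0.0396% of all windows. Such a match describes letters in a window and is not a measured site.

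*Cpt1a* (chr19:3322334-3385733, plus strand), the transferase of the outer membrane in liver and gut and the step that malonyl-CoA blocks, was at 224.1, 249.1 and 311.3 CPM in controls, at 243, 312 and 365 CPM in heterozygous mice and at 269, 297.5 and 347 CPM in homozygous mice. The highest control lay within both IEC-*Ppara* ranges. The differences were 0.35 ± 0.10 in heterozygous mice (log2; adjusted p = 0.3552) and 0.24 ± 0.10 in homozygous mice (adjusted p = 0.5773), and neither passed the edgeR threshold. *Cpt1b* (chr15:89416405-89425863, minus strand), the muscle form of the same enzyme, missed the filter. It was at 0.456, 0.869 and 1.25 CPM in controls, at 0.587, 0.876 and 1.13 CPM in heterozygous mice and at 0.365, 0.695 and 1.12 CPM in homozygous mice, ranges that overlap throughout. Of its exonic bases, 81.4% lie also in *Gm44502* on the same strand, where a read cannot be assigned and is not counted, so its low value is uncertain. Without the filter its change was -0.20 ± 0.27 in homozygous mice (adjusted p = 0.876).

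*Cpt2*, the transferase of the inner membrane, was at a median of 102.5 CPM in controls, 132.1 CPM in heterozygous mice and 134.6 CPM in homozygous mice, with control 1 at 142.3 CPM. Its differences of 0.32 ± 0.088 (heterozygous, adjusted p = 0.2819) and 0.26 ± 0.088 (homozygous, adjusted p = 0.3994) did not pass by edgeR. Without control 1 both passed. *Crat*, which moves acetyl groups between coenzyme A and carnitine, differed by 0.26 ± 0.078 in heterozygous and 0.18 ± 0.078 in homozygous mice and was not called. Per gene length, the deposited FPKM put *Cpt1a* at 0.701 of *Cpt2* in the median control, 0.766 in the median heterozygous and 0.718 in the median homozygous mouse, with overlapping ranges.

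**Figure D2:**
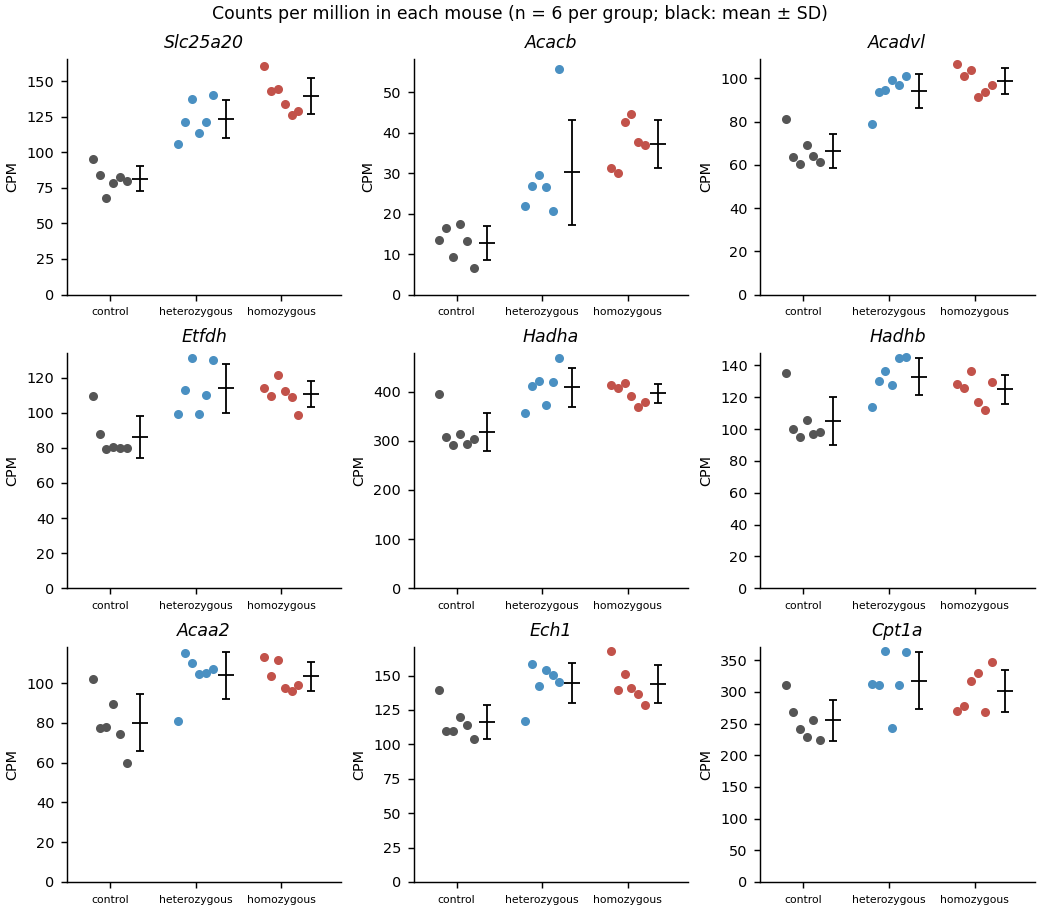
CPM (y axis, from 0) of 9 pathway genes in each of the 6 control, 6 heterozygous and 6 homozygous mice (points), with the group mean and SD in black. For *Slc25a20* and *Acacb* every IEC-*Ppara* mouse lies above every control. For *Hadha*, *Hadhb* and *Etfdh* control 1 alone lies among the IEC-*Ppara* mice.

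Of the 2 genes taken for the control of malonyl-CoA, *Acacb* passed the test in both comparisons and *Mlycd* in neither. Their difference was not tested. Among all genes 0.372% were called higher in homozygous and 0.293% in heterozygous mice. *Acacb* (chr5:114146535-114250761, plus strand) encodes the mitochondrial acetyl-CoA carboxylase, whose malonyl-CoA restrains the outer-membrane transferase. It was at 6.53, 13.4 and 17.4 CPM in controls, at 20.6, 26.8 and 55.8 CPM in heterozygous mice and at 30.1, 37.4 and 44.7 CPM in homozygous mice. Every IEC-*Ppara* mouse lay above every control. *Acacb* rose by 1.56 ± 0.23 (log2; 2.95-fold; adjusted p = 0.001039) in homozygous mice, more than any other gene of the set, and by 1.28 ± 0.23 (2.43-fold; adjusted p = 0.01116) in heterozygous mice. The highest heterozygous mouse, number 6, was at 55.8 CPM where the next was at 29.5 CPM, and without it the heterozygous change was 1.02 and still passed. The heterozygous call was lost in a fit of only the libraries compared, with a replicate block, and without the 4 libraries of highest B cell score (adjusted p = 0.1282, the highest of the 13 alternatives). The homozygous call held in all 13 settings, at adjusted p-values up to 0.02873. *Acacb* is also a gene of fat and muscle: the summed CPM of the adipocyte markers ran from 42.68 to 1196.0 in controls, 44.08 to 1216.0 in heterozygous mice and 74.93 to 1068.0 in homozygous mice. All 9 tested adipocyte markers were higher in both groups, by medians of 0.35 in homozygous and 0.346 in heterozygous mice on the log2 scale, with 0 called by edgeR or by DESeq2, 1 at an unadjusted p under 0.05 in homozygous mice and 0 in heterozygous mice. The summed CPM of the skeletal and cardiac muscle markers ran from 58.6 to 201.3 in controls. It ran from 35.2 to 120.6 in heterozygous mice and 25.4 to 98.0 in homozygous mice, with Mb, Myh1 and Myh4 under 0.1 CPM in every group. Of the 4 tested muscle markers, 3 were higher in homozygous mice (median 0.312) and 2 in heterozygous mice (median -0.045). In each group 1 was lower at an unadjusted edgeR p under 0.05, and 0 were called by edgeR. The part of the adipocyte markers and of the skeletal and cardiac muscle markers in the *Acacb* result was not tested.

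*Acacb* is shown upstream of its RefSeq start because it moved most and is the 1 gene of the 32 with TATAAA, the letters of a TATA box, in its window (3.12% against 13.6% of all windows). The 241 bases are the plus strand of chr5:114165268-114165508 (GRCm38.p6, from RefSeq), inside the gene body that the count annotation begins further upstream, and the capitals mark TATAAA.
Acacb: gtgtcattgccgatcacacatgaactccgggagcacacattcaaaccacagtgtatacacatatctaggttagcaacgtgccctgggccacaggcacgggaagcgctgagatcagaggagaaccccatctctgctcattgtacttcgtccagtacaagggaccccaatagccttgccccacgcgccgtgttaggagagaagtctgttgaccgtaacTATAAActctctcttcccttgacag
The AGGTCA letters of the *Acacb* window, on the other strand, start 44 bases after the RefSeq start and so lie outside the stretch printed.

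*Mlycd*, malonyl-CoA decarboxylase, which removes malonyl-CoA, was at 26.6, 32.0 and 42.8 CPM in controls, at 31.2, 36.6 and 40.6 CPM in heterozygous mice and at 32.7, 33.6 and 42.0 CPM in homozygous mice. The ranges overlapped almost whole. Its differences were 0.15 ± 0.094 (heterozygous, edgeR adjusted p = 0.9996) and 0.09 ± 0.094 (homozygous, adjusted p = 0.8463). Per gene length *Mlycd* was the more abundant of both in every mouse: the ratio of its FPKM to that of *Acacb* was 6.33 to 13.2 in controls (median 8.78), 2.13 to 4.92 in heterozygous mice (median 4.55) and 2.37 to 4.35 in homozygous mice (median 2.89). The control ratios did not overlap those of either IEC-*Ppara* group.

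**Figure D3:**
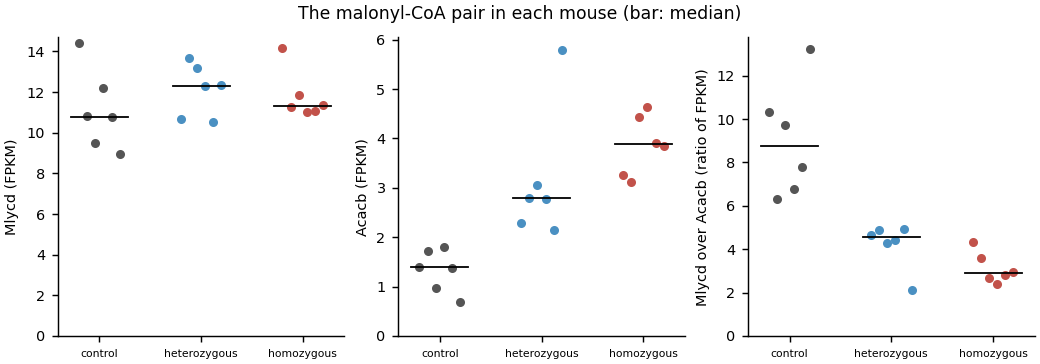
FPKM of *Mlycd*, FPKM of *Acacb* and the ratio of *Mlycd* to *Acacb* (y axes, from 0) in each mouse, with group medians as bars, 6 mice per genotype. *Mlycd* overlaps between the genotypes, *Acacb* does not overlap between controls and IEC-*Ppara* mice, and the ratio is at 6.33 or more in controls and 4.92 or less in IEC-*Ppara* mice.

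The 4 straight-chain acyl-CoA dehydrogenases open each turn of beta-oxidation and divide the substrates by chain length. By edgeR 1 of 4, *Acadvl*, passed the test in each comparison with controls. Among all genes 0.372% were called higher in homozygous and 0.293% in heterozygous mice. *Acadl*, *Acadm* and *Acads* had fitted changes above 0 in both groups that did not pass by edgeR. Such changes were seen in 6082 of 12645 genes in homozygous and 6002 in heterozygous mice. *Acadvl* (chr11:70010183-70015411, minus strand), the very-long-chain enzyme of the inner membrane, was at 60.5, 63.7 and 81.4 CPM in controls, at 78.8, 95.8 and 101.1 CPM in heterozygous mice and at 91.4, 98.9 and 106.5 CPM in homozygous mice. The homozygous range lay wholly above the controls, and heterozygous 1 alone lay below the highest control. *Acadvl* rose by 0.58 ± 0.077 (1.49-fold; adjusted p = 0.0004429) in homozygous mice and by 0.53 ± 0.077 (1.44-fold; adjusted p = 0.001466) in heterozygous mice by edgeR. Of its exonic bases 42.9% overlap *Dvl2* on the opposite strand (mean 16.8 CPM), and no source used here states whether the counting used strand. Without the 4 libraries of highest B cell score the heterozygous call was lost (adjusted p = 0.06734) at a change of 0.49.

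The stretch before *Acadvl* is shown for its AGGTCA hexamer. It is 250 bases of chr11:70015429-70015678 (minus strand as transcribed, GRCm38.p6, from RefSeq), with AGGTCA in capitals, the first letter 87 bases before the RefSeq start.
Acadvl: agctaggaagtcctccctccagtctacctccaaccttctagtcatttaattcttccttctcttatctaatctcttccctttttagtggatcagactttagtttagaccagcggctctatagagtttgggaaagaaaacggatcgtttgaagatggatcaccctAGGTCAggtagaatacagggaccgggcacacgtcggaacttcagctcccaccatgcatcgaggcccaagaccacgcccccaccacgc
The window holds no second copy of the hexamer and no GGGCGG.

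*Acadl* (chr1:66830839-66863277, minus strand), the long-chain enzyme, was at 106.6, 120.7 and 137.3 CPM in controls, at 124.9, 145.7 and 181.0 CPM in heterozygous mice and at 141.2, 163.1 and 170.3 CPM in homozygous mice. Homozygous mice lay above all controls, but the difference of 0.40 ± 0.10 had an adjusted p of 0.1197 by edgeR, and it was called by DESeq2, by limma on the deposited log2 CPM and without control 6. In heterozygous mice the difference was 0.31 ± 0.10 (adjusted p = 0.535), with overlapping ranges. *Acads* (chr5:115110299-115119346, minus strand), the short-chain enzyme, was at 104, 108.9 and 127.7 CPM in controls, at 113.4, 140.7 and 145.1 CPM in heterozygous mice and at 119.4, 131.3 and 154.7 CPM in homozygous mice. Its ranges overlapped, and the differences of 0.30 ± 0.077 (heterozygous, adjusted p = 0.2071) and 0.26 ± 0.077 (homozygous, adjusted p = 0.2677) did not pass. *Acadm*, the medium-chain enzyme, differed least, by 0.23 ± 0.064 in heterozygous mice (adjusted p = 0.2819) and by 0.14 ± 0.064 in homozygous mice (adjusted p = 0.6116). By FPKM *Acadl* exceeded *Acadvl* in every mouse, by a median of 2.33 times in controls, 2.07 in heterozygous and 2.16 in homozygous mice. With 42.9% of the exonic bases of *Acadvl* overlapping *Dvl2* and the strand setting unknown, the size of this ratio is uncertain.

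Of the other dehydrogenases of the family, 0 of 4 were called by edgeR in either comparison, or by DESeq2. Among all genes 4.03% were higher at an unadjusted edgeR p under 0.05 in homozygous and 2.76% in heterozygous mice. At that p 1 of the 4 was higher in each comparison. That gene was *Acad11*, which differed by 0.28 ± 0.078 in heterozygous mice (adjusted p = 0.2635) and by 0.24 ± 0.078 in homozygous mice (adjusted p = 0.3583). *Acad9*, better known as an assembly factor of respiratory complex I, differed by -0.07 and -0.02, *Acad10* by 0.09 and -0.09, and *Acad12* by 0.12 and 0.06, in that order of groups. These 3 genes were also low per length, with mean FPKM of 1.59 to 2.92 in controls.

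The subunits of the trifunctional protein, which hydrates, dehydrogenates and cleaves long-chain intermediates at the inner membrane, are encoded head to head, and they ran together. *Hadha* (chr5:30118304-30155162, minus strand), the alpha subunit, was at 291.0, 305.3 and 395.2 CPM in controls, at 356.5, 414.8 and 469.3 CPM in heterozygous mice and at 369.4, 399.3 and 417.0 CPM in homozygous mice. *Hadhb* (chr5:30155248-30184593, plus strand), the beta subunit with the thiolase, was at 94.7, 99.1 and 135.3 CPM in controls, at 114.0, 133.2 and 145.1 CPM in heterozygous mice and at 112.2, 127.2 and 136.5 CPM in homozygous mice. For both genes control 1 lay among the IEC-*Ppara* mice, and the other 5 controls, at up to 314.5 and 105.7 CPM, lay below every IEC-*Ppara* mouse.

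*Hadha* differed by 0.39 ± 0.083 in heterozygous mice (edgeR adjusted p = 0.05031) and by 0.32 ± 0.083 in homozygous mice (adjusted p = 0.1399). *Hadhb* differed by 0.37 ± 0.090 (adjusted p = 0.1378) and by 0.25 ± 0.090 (adjusted p = 0.4448). Without control 1 both genes were called in both comparisons. The ratio of *Hadha* to *Hadhb* FPKM stayed within 2.19 to 2.53 over all 18 mice, with medians of 2.30 in controls, 2.35 in heterozygous and 2.44 in homozygous mice.

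The stretch between *Hadha* and *Hadhb* is shown because both genes start from it in opposite directions. It is the 85 bases between the annotated genes, the plus strand of chr5:30155163-30155247 (GRCm38.p6, from RefSeq), with the letters GGGCGG in capitals.
Hadha and Hadhb: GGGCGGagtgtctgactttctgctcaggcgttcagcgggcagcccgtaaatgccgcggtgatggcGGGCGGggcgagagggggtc
G and C make up 69.4% of it, and it holds GGGCGG at 2 places.

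Of the 4 genes of the later steps for short and medium chains, 0 were called by edgeR in either comparison with controls. At an unadjusted edgeR p under 0.05, 1 was higher in homozygous and 2 in heterozygous mice. At that p 4.03% and 2.76% of all genes were higher. DESeq2 called *Acaa2* in each comparison, where it called 0.791% of all genes higher in homozygous and 0.546% in heterozygous mice. *Acaa2* (chr18:74779197-74806208, plus strand), the matrix thiolase that releases acetyl-CoA, was at 59.9, 77.5 and 102.2 CPM in controls, at 81.2, 106.2 and 115.0 CPM in heterozygous mice and at 96.0, 101.2 and 113.4 CPM in homozygous mice. Control 1 was the highest control and heterozygous 1 the lowest IEC-*Ppara* mouse, and the ranges overlapped. The differences of 0.40 ± 0.098 (heterozygous, edgeR adjusted p = 0.136) and 0.37 ± 0.098 (homozygous, adjusted p = 0.143) did not pass. *Hadh*, the short-chain hydroxyacyl-CoA dehydrogenase, differed by 0.18 ± 0.087 in heterozygous mice and by 0.00 ± 0.087 in homozygous mice. *Hsd17b10*, which acts on short branched chains and steroids, differed by 0.07 and 0.09, and *Echs1*, the short-chain hydratase, by -0.05 and -0.12, in that order of groups.

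The auxiliary enzymes move double bonds of unsaturated chains into place. At an unadjusted edgeR p under 0.05, 3 of 4 were higher in each comparison. Among all genes 4.03% were higher at that p in homozygous and 2.76% in heterozygous mice. After adjustment by edgeR 0 of 4 passed. DESeq2 called 2 of 4 in homozygous and 1 of 4 in heterozygous mice, where it called 0.791% and 0.546% of all genes higher. *Ech1* (chr7:28825217-28832247, plus strand), a dienoyl-CoA isomerase, was at 103.8, 112.2 and 139.4 CPM in controls, at 116.8, 147.9 and 158.6 CPM in heterozygous mice and at 128.3, 140.4 and 167.9 CPM in homozygous mice. The ranges overlapped through control 1 and heterozygous 1, with differences of 0.35 ± 0.082 (heterozygous, adjusted p = 0.1184) and 0.31 ± 0.082 (homozygous, adjusted p = 0.143). *Decr1*, the dienoyl-CoA reductase, differed by 0.25 ± 0.088 and 0.32 ± 0.088, and all homozygous mice lay above all controls, by a margin of 72.7 against 71.9 CPM. *Eci2* differed by 0.32 ± 0.11 and 0.31 ± 0.11. *Eci1*, the other enoyl-CoA isomerase, differed by 0.07 in heterozygous mice and by -0.10 in homozygous mice.

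Electrons from the dehydrogenases pass to the electron transfer flavoprotein, of *Etfa* and *Etfb*, and from it through the oxidoreductase *Etfdh* to ubiquinone. *Etfdh* (chr3:79603788-79629500, minus strand) was at 79.1, 80.3 and 109.4 CPM in controls, at 99.4, 111.4 and 131.3 CPM in heterozygous mice and at 98.8, 111.0 and 121.6 CPM in homozygous mice. Control 1 lay within both IEC-*Ppara* ranges, and the other 5 controls, at up to 87.9 CPM, lay below them. It rose by 0.43 ± 0.090 (1.35-fold; adjusted p = 0.04776) in heterozygous mice, a call kept in 4 of 18 fits that leave out 1 library and in 3 of 13 other settings. In homozygous mice the difference was 0.37 ± 0.089 (edgeR adjusted p = 0.1125). *Etfa* differed by 0.15 ± 0.074 and 0.09 ± 0.074 and *Etfb* by 0.26 ± 0.12 and 0.28 ± 0.12, none of them called. *Etfb* was listed at 7.46 to 12.9 CPM, but 58.2% of its exonic bases are shared with genes of the same strand, where reads are not counted, so its level is uncertain.

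The 9 genes of branched-chain and propionate breakdown, which use the same kind of chemistry on amino acid carbon, did not differ detectably. By edgeR and by DESeq2 0 of 9 were called and 0 had an unadjusted p under 0.05 in either comparison with controls. Among all genes edgeR called 0.372% higher in homozygous and 0.293% in heterozygous mice. At that unadjusted p 4.03% of all genes were higher and 4.03% lower in homozygous mice, and 2.76% and 2.53% in heterozygous mice. With 9 genes, counts of 0 lie near these shares. The changes of the 9 genes ran from -0.10 to 0.13 in homozygous mice and from -0.13 to 0.12 in heterozygous mice, with medians of 0.009 and 0.006. *Pccb* and *Pcca*, the subunits of propionyl-CoA carboxylase, differed by -0.10 ± 0.073 and 0.07 ± 0.092 in homozygous mice. *Acadsb*, *Acad8*, *Ivd* and *Gcdh*, dehydrogenases of branched-chain amino acid and lysine breakdown, differed by 0.13, -0.02, -0.02 and 0.01 in homozygous mice, and *Hibch* of valine breakdown by 0.02. *Echdc2* differed by 0.03 and *Mcee*, the methylmalonyl-CoA epimerase, by -0.03.

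**Figure D4:**
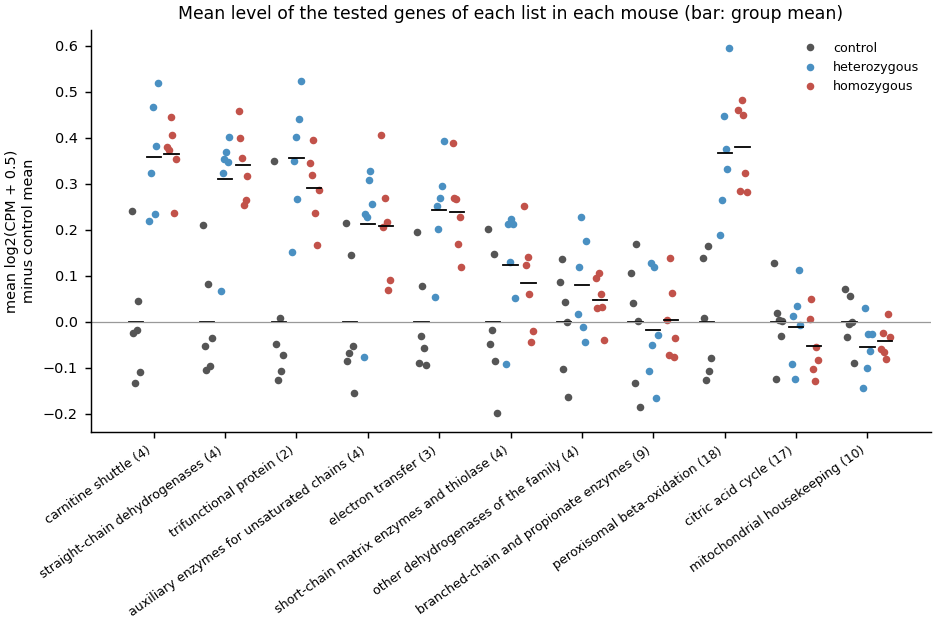
Mean log2(CPM + 0.5) of the tested genes of a list, minus the mean of the 6 controls (y axis), in each mouse (points; bar, group mean); the number of genes is in parentheses. The shuttle, the straight-chain dehydrogenases, the trifunctional protein and peroxisomal beta-oxidation have IEC-*Ppara* means of 0.29 to 0.38, and the citric acid cycle and mitochondrial housekeeping lists means of -0.055 to -0.010.

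Per gene length the set spanned a wide range of levels in controls. *Hadh* was the most abundant, at 82.1 ± 6.6 FPKM (SD, n = 6), followed by *Acadl* at 60.7 ± 7.7 FPKM, and their ranges did not overlap. *Acaa2*, *Etfa*, *Ech1* and *Acads* followed at 52.9 ± 9.5, 52.2 ± 4.1, 50.9 ± 5.5 and 49.7 ± 4.4 FPKM, neighbours that did not differ beyond their spread. *Acacb*, at 1.32 ± 0.43 FPKM, was the lowest gene tested. In homozygous mice *Hadh* and *Acadl* were at 81.9 ± 9.2 and 80.2 ± 5.1 FPKM with overlapping ranges, and *Slc25a20* moved from rank 16 of 37 in controls to rank 13.

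Homozygous and heterozygous mice were compared directly to ask whether a second transgene copy added to these genes. By edgeR and by DESeq2 0 of 36 genes were called, against 0.00791% of all genes called in either direction by edgeR. At an unadjusted p under 0.05, 0 of 36 were higher, where 3.89% of all genes were, and 4 of 36 were lower, where 3.72% were. These were *Acad10*, *Hadh*, *Eci1* and *Pccb*, at differences of -0.16 to -0.20. *Slc25a20* was higher in homozygous mice by 0.15 ± 0.085 (adjusted p = 0.6446), *Acacb* by 0.28 ± 0.22 (adjusted p = 0.7263) and *Acadvl* by 0.05 ± 0.077 (adjusted p = 0.8909), and none of these differences passed. *Ppara* was higher by 0.59 ± 0.17 (adjusted p = 0.4851). Beside these values, all 10 smooth muscle markers (median 0.741, 1 at an unadjusted p under 0.05) and all 10 fibroblast markers (median 0.433, 2 at an unadjusted p under 0.05) were higher in homozygous than in heterozygous mice, and 8 of 10 epithelial markers were lower (median -0.105, 0 at an unadjusted p under 0.05), with 0 of these markers called by edgeR or by DESeq2. The median of the 36 pathway genes was -0.042. All 10 B cell markers were lower (median -1.37), 9 of 10 dendritic cell and macrophage markers higher (median 0.222) and 8 of 9 adipocyte markers higher (median 0.148), with 0 of them at an unadjusted p under 0.05 and 0 called by edgeR or by DESeq2. Of 9 tested absorptive enterocyte markers 4 were higher (median -0.094). At an unadjusted edgeR p under 0.05, 1 of these 9 was higher and 2 were lower, and 0 were called by edgeR. With the smooth muscle, B cell or epithelial score as a covariate 0 of 36 pathway genes were called. The part of the other marker lists was not tested.

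With both IEC-*Ppara* groups set against the controls, 7 of 36 genes rose (19.4%), where 0.514% of all genes were called higher by edgeR, and 18 of 36 had an unadjusted p under 0.05 and were higher, where 2.87% of all genes did. The 7 were *Slc25a20*, *Acacb*, *Acadvl*, *Etfdh* (0.40 ± 0.079; adjusted p = 0.0214), *Hadha* (0.36 ± 0.072; adjusted p = 0.02512), *Ech1* (0.33 ± 0.072; adjusted p = 0.04586) and *Acaa2* (0.39 ± 0.086; adjusted p = 0.04746). The calls of the last 4 were lost with the B cell score as a covariate and with a replicate block. Without any of controls 2, 3, 4 or 5 they were lost too, and each of these fits leaves *Slc25a20*, *Acacb* and *Acadvl*. *Ech1* and *Acaa2* were also lost with library size only, with limma, and with the sex or smooth muscle covariate. Both were lost without any of control 6, heterozygous 2 to 6 or homozygous 1 to 5. Every IEC-*Ppara* mouse was above every control for 2 of 36 genes, *Slc25a20* and *Acacb*, where 0.269% of all genes showed this. Taken by group, 5 of 36 genes were apart in homozygous mice (*Slc25a20*, *Acacb*, *Acadvl*, *Acadl* and *Decr1*; 0.593% of all genes) and 2 of 36 in heterozygous mice (0.293% of all genes).

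Single mice moved many of these genes at once. Control 1 was the highest control for 21 of 36 genes, heterozygous 1 the lowest heterozygous mouse for 20, and homozygous 1 the highest homozygous mouse for 17. Control 6 was the lowest control for 17, homozygous 5 the lowest homozygous mouse for 16, and control 4 the highest control for 13. The same counts were not made over all genes, so they do not show whether these mice stood out in this pathway alone. Without control 1, 9 genes were called in each comparison with controls (*Cpt2*, *Slc25a20*, *Acacb*, *Acadvl*, *Hadha*, *Hadhb*, *Acaa2*, *Ech1* and *Etfdh*), and 11 with both groups joined, where 0.459%, 0.38% and 0.585% of all genes were called higher in homozygous, heterozygous and joined mice. Without heterozygous 1, 9 genes were called in heterozygous mice, among them *Acadm* and *Acads*, where 0.395% of all genes were called higher. *Slc25a20*, *Acacb* and *Acadvl* were called in 18 of 18 such fits in homozygous, heterozygous and joint comparisons. With the epithelial, smooth muscle or B cell score as a covariate these 3 were called in each group and *Etfdh* was not called in heterozygous mice. DESeq2 called 9 genes in each group (all genes higher, 0.791% in homozygous and 0.546% in heterozygous mice) and 13 with both groups joined (all genes higher, 0.886%), adding *Acadl*, *Hadha*, *Acaa2*, *Ech1*, *Decr1* and *Etfdh* in homozygous mice and *Acads*, *Hadha*, *Hadhb*, *Acaa2* and *Ech1* in heterozygous mice.

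**Figure D5:**
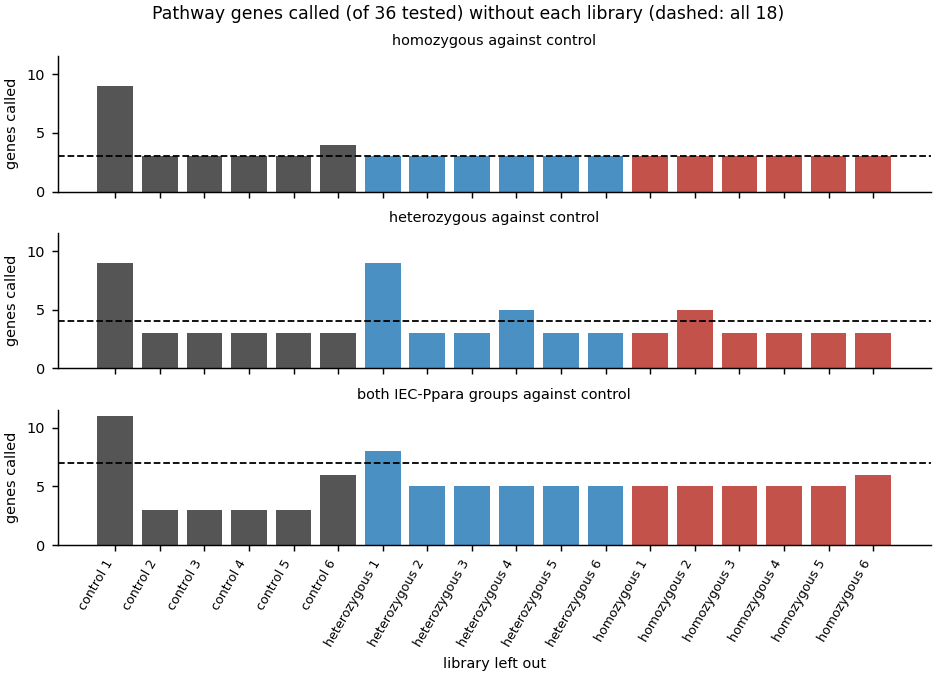
Number of the 36 tested genes called (y axis, bars from 0) in 3 comparisons when each of the 18 libraries (x axis) is left out, with the count from all libraries dashed. Leaving out control 1 raises the count to 9, 9 and 11, and leaving out any other control, heterozygous or homozygous library gives 3 to 9.

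The pathways around mitochondrial beta-oxidation were described by lists of the same kind. Of 18 tested genes of peroxisomal beta-oxidation, which shortens very long chains, 3 rose in homozygous mice and 3 in heterozygous mice, where 0.372% and 0.293% of all genes were called higher, and 0 fell by edgeR or by DESeq2. The thiolase *Acaa1b* rose by 2.35 ± 0.34 and 2.08 ± 0.34, the multifunctional enzyme *Hsd17b4* by 0.65 ± 0.099 and 0.59 ± 0.099, and the reductase *Decr2* by 0.39 ± 0.071 in homozygous mice, with 0.28 ± 0.071 in heterozygous mice not called. The third gene called in heterozygous mice, *Slc27a2*, a very-long-chain acyl-CoA synthetase named after its value was seen, rose by 0.64 ± 0.13 there (edgeR adjusted p = 0.03998). Of 9 genes that supply fatty acids and acyl-CoA, 3 rose in homozygous mice (all genes, 0.372%): the binding proteins *Fabp1* (3.88 ± 0.23) and *Fabp2* (0.94 ± 0.14) and the acyl-CoA synthetase *Acsl3* (0.82 ± 0.18). In heterozygous mice 1 of 9 rose by edgeR (all genes, 0.293%), *Fabp1* by 3.40 ± 0.22, and DESeq2 called 3 of 9 higher (all genes, 0.546%). There *Fabp2* differed by 0.61 ± 0.14 (edgeR adjusted p = 0.08235) and *Acsl3* by 0.81 ± 0.18 (edgeR adjusted p = 0.06719). Between homozygous and heterozygous mice *Fabp2* differed by 0.32 ± 0.14 and *Acsl3* by 0.01 ± 0.17, and neither was called by edgeR. Of 6 genes of carnitine supply, 1 rose in homozygous mice (all genes, 0.372%), the carnitine transporter *Slc22a5* by 0.53 ± 0.11 (edgeR adjusted p = 0.0294). In heterozygous mice 0 of 6 were called by edgeR and 1 by DESeq2, where DESeq2 called 0.546% of all genes higher. At an unadjusted edgeR p under 0.05, 1 was higher, where 2.76% of all genes were. *Slc22a5* differed by 0.44 ± 0.11 in heterozygous mice (edgeR adjusted p = 0.143). In homozygous mice the related transporter *Slc22a4* differed by -0.31 ± 0.13 (adjusted p = 0.5684) and *Slc25a29* by 0.16 ± 0.14 (adjusted p = 0.7923).

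The citric acid cycle, which burns the acetyl-CoA, did not differ detectably. By edgeR and by DESeq2 0 of its 17 genes were called and 0 had an unadjusted p under 0.05 against controls. By edgeR 0.372% of all genes were called higher in homozygous and 0.293% in heterozygous mice. At that unadjusted p 4.03% were higher and 4.03% lower in homozygous mice, and 2.76% and 2.53% in heterozygous mice, so counts of 0 lie near these shares. The median change of the 17 was -0.03 in homozygous mice, with 3 above 0, and 0.01 in heterozygous mice, with 10 above 0. *Ogdh*, *Sdhb* and *Sdha* differed by -0.14, -0.12 and -0.105 in homozygous mice. Of 10 mitochondrial housekeeping genes 0 were called by edgeR or by DESeq2, and at an unadjusted p under 0.05 there were 0 in homozygous mice and 1 (lower) in heterozygous mice by edgeR and 0 by DESeq2. These counts lie near the shares over all genes as well. Of the 10, 2 had changes above 0 in homozygous and 4 in heterozygous mice. *Tfam*, *Hspa9* and *Tomm20*, of mitochondrial DNA, chaperone and import functions, differed by -0.14, -0.08 and -0.08 in homozygous mice. Among 12 transcriptional regulators of the pathway edgeR called 1 in each group, *Ppara*, which rose by 2.51 ± 0.18 in homozygous and 1.92 ± 0.18 in heterozygous mice. DESeq2 called 2 of 12 higher in each group, where it called 0.791% and 0.546% of all genes higher. *Creb3l3*, a liver and gut factor of lipid metabolism, differed by 0.68 ± 0.19 (edgeR adjusted p = 0.2178) and 0.88 ± 0.19 (adjusted p = 0.06923), and *Pparg* by 0.19 ± 0.19 and 0.12 ± 0.19. With both groups joined *Creb3l3* was called, at 0.78 ± 0.17 (edgeR adjusted p = 0.04741), where 0.514% of all genes were called higher.

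Whether the change in homozygous mice differed between the sexes was tested as a genotype by sex term. By edgeR 0 of 36 genes were called and 0 had an unadjusted p under 0.05, where 2.04% of all genes did, and by DESeq2 0 were called and 1 had an unadjusted p under 0.05. The term, the change in females minus that in males, was below 0 for 34 of 36 genes (94.4%), all but *Acad9* and *Acad12*, with a median of -0.149 on the log2 scale, beside 49.6% of all genes and a median of 0.001. With each mouse left out in turn, a step chosen after seeing the data, this median moved with single mice: it was -0.075 without control 1, a female and the highest control for 21 of 36 genes, -0.085 without homozygous 5 and -0.246 without homozygous 2, the only females in their group, and between -0.207 and -0.115 without any other control or homozygous mouse. The genes share the same mice, and with 2 homozygous females the term was estimated imprecisely.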

How the data were processed

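Whole-thickness ileum of 18 mice was profiled by poly-A RNA-seq. Per the study's methods and the submitters' processing notes, the authors aligned reads with STAR to GRCm38 with Ensembl 101 genes and counted uniquely mapped, unambiguous reads with featureCounts. The strand setting is not given in the sources used here. The deposited tables hold raw counts per gene and, made by the authors from those counts, CPM (scaled to the library totals of 38528522 to 50376371), FPKM (scaled also to gene length) and log2 CPM. The CPM and FPKM printed are the deposited values.

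Protein-coding genes above 3 CPM in at least 4 libraries (12645) were fitted together over all 18 libraries with edgeR 4.0.16 (R 4.3.3; TMM, quasi-likelihood test, Benjamini-Hochberg adjustment), with genotype as the only term. A gene was called at an adjusted p under 0.05. The steps were tested on simulated data. The alternatives were DESeq2 1.42.0, limma 3.58.1 on the deposited log2 CPM, other scaling, no filter, all biotypes, sex or a marker score as a covariate, a replicate block, only the libraries compared, and leaving out each library. FPKM served to compare levels, ranks and ratios of genes, within and between genotypes, and was not tested. Values by library were given for pathway genes called in any comparison or with an unadjusted p under 0.001, for the entry genes and for the gene below the filter, and the other lists were named by their 3 genes of lowest p in homozygous mice. Pathway genes, lists and motifs were chosen with earlier results of these data known. Upstream bases were taken from RefSeq windows (GRCm38.p6), without bases in annotated exons.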

Additional observations from a re-analysis of the deposited data

Results flagged for a closer look

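In 9 of 111 groups of 6 mice the gap from 1 mouse to the next exceeded Dixon's critical ratio of 0.625, where chance alone gives about 1 in 20 groups. Control 1 was far above the other controls for *Hadha* (395.2 CPM, next 314.5), *Hadhb* (135.3 CPM, next 105.7) and *Etfdh* (109.4 CPM, next 87.9). Heterozygous 1 was far below the other heterozygous mice for *Acadvl* (78.8 CPM, next 93.7), *Acadm* (109.8 CPM, next 132.1) and *Acaa2* (81.2 CPM, next 104.5). Heterozygous 6 was far above for *Acacb* (55.8 CPM, next 29.5), homozygous 1 for *Mlycd* (42.0 CPM, next 35.1) and heterozygous 4 for *Pcca* (21.0 CPM, next 17.5).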

How the results depend on the processing

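*Slc25a20*, *Acacb* and *Acadvl* were called in homozygous mice under all 13 alternatives and in all 18 fits that leave out 1 library. No called value changed sign under any alternative run. DESeq2 called more: 9, 9 and 13 pathway genes (homozygous, heterozygous, both groups joined) and 136, 80 and 140 of all genes, against 52, 37 and 70 by edgeR, and 10 of all genes between homozygous and heterozygous mice. A fit of only the libraries compared called 2 pathway genes and 23 of all genes in heterozygous mice, and it gives no value for the joined groups. Without the 4 libraries of highest B cell score, an alternative chosen after seeing the data, 1 pathway gene was called in heterozygous mice and 3 in the joined groups, and 31, 15 and 32 of all genes. With the B cell score as a covariate 3 pathway genes and 43 of all genes were called in the joined groups, and without the filter 4 pathway genes. The 1 gene called between homozygous and heterozygous mice fell to 0 with only the libraries compared, without the 4 libraries, with the B cell, smooth muscle or sex covariate, without the filter, with all biotypes and with DESeq2 size factors in edgeR. The cause of these shifts was not tested.

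Leaving out 1 library gave 3 to 9 called pathway genes in homozygous mice (all genes 43 to 65), 3 to 9 in heterozygous mice (25 to 53), 3 to 11 in the joined groups (45 to 85), and 0 to 0 between homozygous and heterozygous mice (0 to 2).

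Replicate numbers are shared by the groups, and the labels do not state whether they pair the mice. Same-numbered libraries correlated at -0.461 to 0.507, above 0.1 in 8 of 18 pairs, and 2 libraries correlated best with their own number. Those numbered 4 correlated at 0.507, 0.283 and 0.361. The correlations also carry differences in tissue composition between mice, so they cannot decide whether the numbers pair mice by litter or batch. With the replicate block 3 pathway genes were called in homozygous mice, 2 in heterozygous mice (22 of all genes), 3 in the joined groups (43 of all genes) and 0 of all genes between homozygous and heterozygous mice.

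*Cpt1b*, at 18 to 54 counts, missed the filter and was tested only without it.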
